A study of Homo sapiens with 6 samples.

Results

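The genes described here encode the subunits of RNA polymerase I, II and III, the nuclear enzymes that copy DNA into RNA. They were taken from the RNA-seq table as every row whose symbol starts with POLR1, POLR2 or POLR3 followed by a letter and whose mean over the 6 samples was at least 0.5 CPM (a gene's reads scaled to the same total of counted reads in every library). This gave 30 genes of 31 matching rows, among 13373 genes at that level and 29744 rows in all. The samples were LNCaP cells, a human prostate cancer line that responds to androgen, grown in standard medium with serum and given either of 2 treatments for 4 h. The 3 CDKI-73 samples received 250 nM of CDKI-73, a small molecule inhibitor of CDK9, and the 3 DMSO samples received the vehicle. Because CDKI-73 also appears in the titles of the vehicle samples, groups were taken from the treatment label, on which all directions here depend. All 6 samples come from a single cell line, and these RNA-seq samples cover a single dose and time.

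RNA polymerase I (Pol I) makes the large ribosomal RNA precursor, RNA polymerase II (Pol II) makes mRNAs, and RNA polymerase III (Pol III) makes tRNAs, the 5S ribosomal RNA and other short RNAs. Each enzyme has a pair of large catalytic subunits, an assembly platform, a stalk and small peripheral subunits, and some small subunits are built into all of them. CDK9 is the kinase of P-TEFb, which phosphorylates the C-terminal domain (CTD) of the largest Pol II subunit and releases paused Pol II into elongation. All the subunit mRNAs, also those of Pol I and Pol III, are themselves transcribed by Pol II.

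To show what lies upstream of some of the genes that passed the test, promoters (250 bases before to 50 bases after a start site) were taken from RefSeq on GRCh38.p14, where 20 of the 30 genes were matched. The sequences below run 5′ to 3′ in the direction of the gene. They belong to 4 genes that were at least 2-fold lower in CDKI-73 samples (POLR1B with both of its listed start sites, POLR1C, POLR2D and POLR3F) and to POLR2E, which was higher; other genes with differences as large are not shown. Capitals mark matches, on either strand, to a GC box (GGGCGG) or to an ETS site (CGGAAGT).
POLR1B, chr2:112541786-112542085, plus strand: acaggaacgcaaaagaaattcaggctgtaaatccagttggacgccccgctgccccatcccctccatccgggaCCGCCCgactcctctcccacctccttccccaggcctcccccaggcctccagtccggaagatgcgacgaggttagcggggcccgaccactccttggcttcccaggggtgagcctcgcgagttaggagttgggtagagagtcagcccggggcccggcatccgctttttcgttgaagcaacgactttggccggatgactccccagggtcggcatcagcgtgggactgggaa
POLR1B, chr2:112542215-112542514, plus strand: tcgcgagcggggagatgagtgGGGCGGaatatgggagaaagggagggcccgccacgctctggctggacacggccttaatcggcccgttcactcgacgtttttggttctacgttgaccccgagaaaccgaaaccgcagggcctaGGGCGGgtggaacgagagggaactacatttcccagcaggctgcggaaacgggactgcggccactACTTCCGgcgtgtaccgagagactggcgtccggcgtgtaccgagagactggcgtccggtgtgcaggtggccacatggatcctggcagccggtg
POLR1C, chr6:43516839-43517138, plus strand: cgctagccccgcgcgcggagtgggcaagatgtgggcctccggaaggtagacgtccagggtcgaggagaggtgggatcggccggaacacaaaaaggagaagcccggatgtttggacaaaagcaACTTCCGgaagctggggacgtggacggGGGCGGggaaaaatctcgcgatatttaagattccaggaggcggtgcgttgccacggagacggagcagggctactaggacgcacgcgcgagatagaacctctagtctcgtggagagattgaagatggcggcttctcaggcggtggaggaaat
POLR2D, chr2:127858106-127858405, minus strand: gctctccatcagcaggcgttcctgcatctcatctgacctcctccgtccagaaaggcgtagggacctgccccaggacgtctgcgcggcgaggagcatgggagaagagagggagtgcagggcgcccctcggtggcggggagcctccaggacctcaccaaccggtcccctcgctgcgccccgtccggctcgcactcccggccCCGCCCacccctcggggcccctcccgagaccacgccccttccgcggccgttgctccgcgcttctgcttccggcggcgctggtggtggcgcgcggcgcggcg
POLR3F, chr20:18467140-18467439, plus strand: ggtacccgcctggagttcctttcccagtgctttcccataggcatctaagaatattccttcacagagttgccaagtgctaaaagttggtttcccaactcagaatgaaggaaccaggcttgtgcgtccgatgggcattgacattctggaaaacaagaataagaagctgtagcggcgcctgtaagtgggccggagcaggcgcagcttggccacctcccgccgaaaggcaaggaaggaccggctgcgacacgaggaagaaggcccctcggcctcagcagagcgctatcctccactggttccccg
POLR2E, chr19:1095326-1095625, minus strand: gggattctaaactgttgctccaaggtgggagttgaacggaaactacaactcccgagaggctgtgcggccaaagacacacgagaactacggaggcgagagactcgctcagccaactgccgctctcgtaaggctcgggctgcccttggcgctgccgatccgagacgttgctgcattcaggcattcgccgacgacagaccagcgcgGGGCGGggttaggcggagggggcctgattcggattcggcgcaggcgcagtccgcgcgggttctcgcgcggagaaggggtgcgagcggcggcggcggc

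The POLR3F window held no match to these letters, and in POLR1C an ETS match began 128 bases before the start site and a GC box 101 bases before it. A GC box began 51 bases before the start site of POLR2D and 47 before that of POLR2E. Over all subunit genes, 20 of 26 promoters (76.9%) held a GC box, against 45.0% of the 35116 promoters in the table, and 9 (34.6%) held the ETS letters, against 6.83%. A CCAAT box (CCAAT) was found in 5 (19.2%), against 34.6%, and a TATA box (TATAAA) in 1 (3.85%), that of POLR2M, against 11.5%. The MYC/MAX E-box (CACGTG) stood in 3 promoters (11.5%), those of POLR3A, POLR3C and POLR3E, against 7.26%. The ETS letters occurred upstream of 6 of 12 matched genes that were lower and 1 of 3 that were higher, and the GC box upstream of 8 and 2 of them. Of the 5 matched genes that did not pass, 1 had the ETS letters and 5 had a GC box. These are matches of letters and say nothing about which factors were bound. The comparison promoters were not limited to expressed genes, and the median GC content was 63.0% in subunit promoters and 58.7% in all. The listed windows of POLR2F overlap and hold the same ETS match, which is thus counted more than once.

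The samples held 46.1 to 52.0 M counted reads with CDKI-73 and 52.9 to 60.9 M with DMSO, inferred from the step between CPM values, so 1 read was worth 0.0164 to 0.0217 CPM. All 9 luminal prostate markers were above 1 CPM. Their summed level was 6322 to 6685 CPM in CDKI-73 samples and 7387 to 7783 CPM in DMSO samples. Of 12 markers of basal, stromal, immune and endothelial cells, 3 reached 1 CPM (COL1A1, VWF and KRT14) and COL1A2 and CD3E were at 0 in every sample. Their sum was 24.2 to 28.2 CPM with CDKI-73 and 20.5 to 21.4 CPM with DMSO, and its part in the results below was not tested. CDKI-73 replicate 3 stood furthest from its group, and DMSO replicate 1 deviated in the same direction (r = 0.34 across genes, which are not independent replicates). In bulk RNA, a lower share of a transcript cannot be told apart from a change in the total RNA or in the cells that make it.

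After 4 h, subunits specific to Pol I and Pol III were mostly lower in CDKI-73 samples, while the 5 subunits built into all the polymerases were mostly level or higher, except with the reference genes as the scale. Of the 15 genes that belong to Pol I, to Pol III or to both without being part of Pol II, 11 were lower and 4 did not pass the test (limma across all 13373 genes, Benjamini-Hochberg adjusted p of 0.05 or less). The background over all 13373 genes was 48.2% lower and 24.2% higher. None of the 15 was higher, also at an unadjusted p under 0.05 or by limma voom on recovered reads. Scaling changed this: POLR1D and POLR3GL passed as higher with the median of gene ratios and with the trimmed mean of M-values, as did POLR1D, POLR3G, POLR3GL and POLR3K with the upper quartile. Among the 8 subunits specific to Pol II there were 3 lower and 2 higher genes, and 3 without a call. The plot of fold changes by class shows this split.

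**Figure D1:**
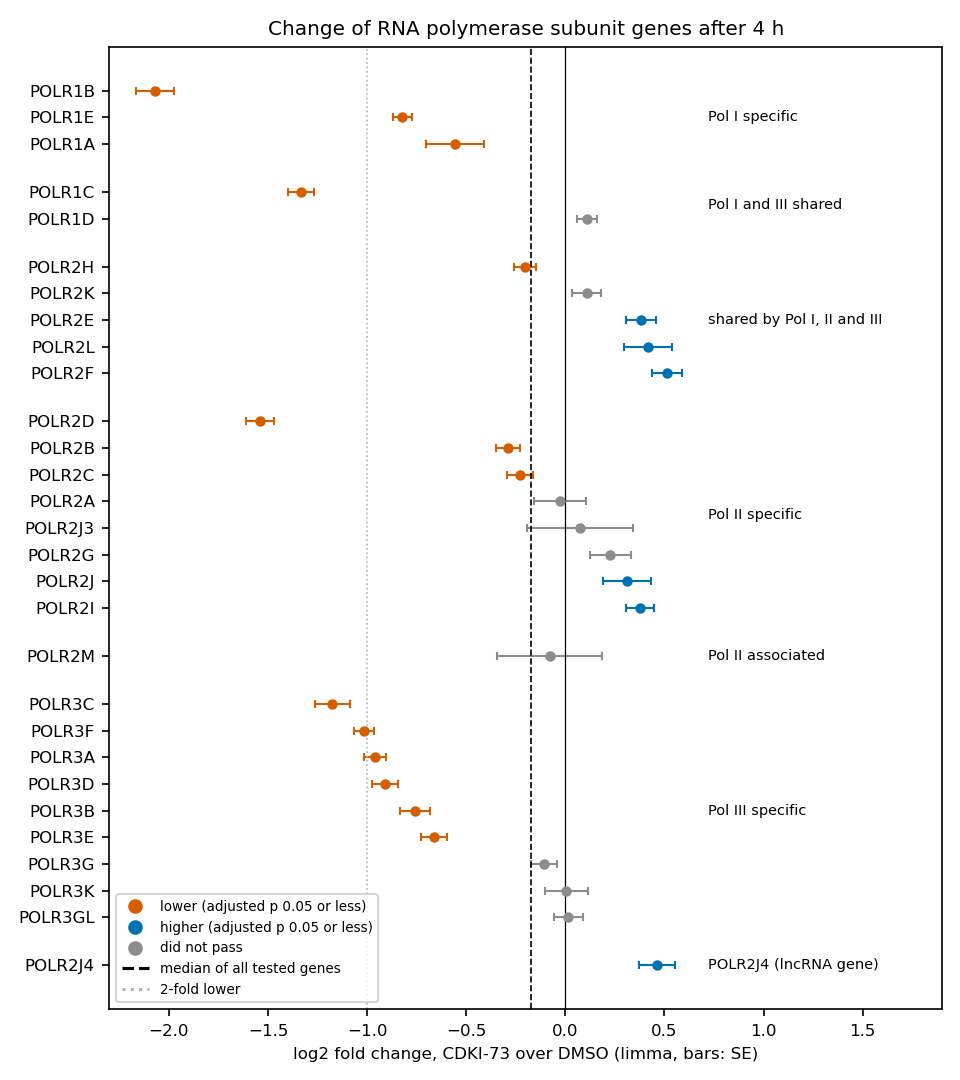
Log2 fold change (CDKI-73 over DMSO) of 29 subunit genes, grouped by the enzyme they belong to, with limma's SE as bars. All 3 Pol I specific genes and 6 of the 9 Pol III specific genes plotted lie to the left of the dashed median of all tested genes (-0.18) and passed the test, whereas 4 of 5 shared subunits lie above 0, 3 of them past the test, a side that depends on the scaling (median -0.026 with the reference genes).

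Over all 30 genes, 15 were lower (50.0%) and 6 were higher (20.0%), against 48.2% lower and 24.2% higher among all tested genes. By the stricter call of at least 2-fold, 5 were lower (16.7%), against 22.3% of all tested genes, and 0 were higher, against 1.11%; 0 were also 2-fold higher at an unadjusted p under 0.05 and by limma voom. The 3 CDKI-73 values were all below the 3 DMSO values in 15 genes (background 50.0%) and all above them in 5 (background 25.9%), and the groups overlapped in 10. The median log2 fold change was -0.16 for the subunit genes and -0.18 for all tested genes. As a whole the subunit genes were thus close to the background, also within the band of 10 to 300 CPM that holds 27 of them (55.6% lower, against 51.6% of the 8371 genes in it). What differed was the distribution among classes: the median was -0.82 for Pol I specific genes (n = 3), -0.71 for Pol III specific genes (n = 10), 0.02 for Pol II specific genes (n = 8) and 0.38 for those shared by all (n = 5). These are descriptions of lists, and no test between classes was made. Transcript length also differed among the classes, and its part in these medians was not tested.

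CPM are shares of the counted reads, so the position of 0 depends on the scaling of the libraries. Scaling to the median of gene ratios moved the median of all genes by 0.20 on the log2 scale, the upper quartile by 0.27, a trimmed mean of M-values by 0.22, and the reference genes GAPDH, HPRT1 and ACTB by -0.40. The split of 15 lower and 6 higher became 12 and 10, 11 and 12, 11 and 10, and 21 and 0 in that order. Under all of these scalings the medians of the Pol I and Pol III specific classes stayed below 0, while those of the shared and the Pol II specific classes turned below 0 with the reference genes (-0.026 and -0.36). A scaling factor moves all genes of a library alike on the log2 scale, so distances between genes remain. Relative to the median of all tested genes, the class medians were -0.65 for Pol I, -0.53 for Pol III, 0.20 for Pol II and 0.56 for the shared subunits.

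Pol I showed the largest fall of any subunit. POLR1B, at chr2:112541915-112579818 on hg38, encodes the second largest subunit, which forms the active centre together with POLR1A. It had 16.1, 16.9 and 12.9 CPM in CDKI-73 samples, against 63.2, 64.2 and 65.4 CPM in DMSO samples. The groups were far apart, and CDKI-73 replicate 3 was the lowest. The level was 4.20-fold lower with CDKI-73 (log2 fold change -2.07, SE 0.096, adjusted p = 3.3e-07 in limma).

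POLR1E encodes a peripheral subunit that forms a dimer with the product of CD3EAP. Its level was 30.2, 30.6 and 29.3 CPM with CDKI-73, against 54.1, 52.8 and 52.7 CPM with DMSO. The replicates of each group lay close together and the groups did not overlap (log2 fold change -0.82, SE 0.046, adjusted p = 9.0e-07 in limma). POLR1A, the largest Pol I subunit, had 27.7, 29.7 and 21.0 CPM with CDKI-73, against 34.3, 35.8 and 45.0 CPM with DMSO. It was lower with a wide spread in both groups (log2 fold change -0.56, SE 0.14, adjusted p = 0.0084 in limma), and it no longer passed under upper quartile scaling (-0.28) or with the trimmed mean of M-values (-0.33).

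The remaining Pol I subunits stand in the table under older symbols, so the rule for members did not take them, and they are given for completeness. CD3EAP (now POLR1G), the partner of POLR1E, had 5.35, 5.32 and 5.40 CPM in CDKI-73 samples, against 18.8, 20.5 and 22.9 CPM in DMSO samples (log2 fold change -1.93, adjusted p = 2.2e-07 in limma). TWISTNB (POLR1F), a subunit of the stalk, had a log2 fold change of -1.15 and ZNRD1 (POLR1H), a small subunit involved in RNA cleavage, one of -1.12. None of these genes had a CDKI-73 sample within the DMSO range. Exons of other genes on the opposite strand cover 56.4% of the exon bases of CD3EAP and 44.2% of those of ZNRD1. With CD3EAP, TWISTNB and ZNRD1, 6 of 6 Pol I specific genes were lower, 4 of them at least 2-fold, and the class median was -1.13. The shares over all tested genes were 48.2% and 22.3%. POLR1A, among the 6, did not pass under upper quartile scaling or with the trimmed mean of M-values.

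POLR1C and POLR1D form the assembly platform of Pol I and Pol III, and their mRNAs parted. POLR1C, at chr6:43509702-43562419, had 18.4, 20.3 and 17.8 CPM in CDKI-73 samples, against 49.4, 47.0 and 46.5 CPM in DMSO samples. That is 2.52-fold lower (log2 fold change -1.33, SE 0.064, adjusted p = 3.8e-07 in limma), with no overlap. Its partner POLR1D had 118, 115 and 111 CPM with CDKI-73, against 112, 105 and 102 CPM with DMSO. The groups overlapped and the difference did not pass the test (0.11, SE 0.051, adjusted p = 0.080 in limma). Without CDKI-73 replicate 3 or DMSO replicate 1 it passed as higher (0.13 and 0.15). It did so too after upper quartile scaling (0.39), with the trimmed mean of M-values (0.34) or with the median of gene ratios (0.31), and it passed as lower with the reference genes (-0.30).

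Of the 5 subunits that all the polymerases contain, 3 were higher with CDKI-73, 1 was lower and 1 did not pass. Among all tested genes 24.2% were higher and 48.2% lower. With the reference genes as the scale POLR2E turned to -0.026 and POLR2K to -0.30. POLR2F, which helps to anchor the clamp of the enzyme, had 54.8, 53.3 and 63.5 CPM in CDKI-73 samples, against 42.3, 39.1 and 38.6 CPM in DMSO samples. It was the largest rise (log2 fold change 0.51, SE 0.075, adjusted p = 3.6e-04 in limma) and the groups did not overlap. With the reference genes it was at 0.10 and did not pass.

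POLR2E, a subunit of the lower jaw, had 162, 161 and 192 CPM with CDKI-73, against 138, 126 and 129.7 CPM with DMSO (0.38, SE 0.075, adjusted p = 0.0019 in limma). POLR2L, a small zinc-binding subunit, had 122, 121 and 158 CPM with CDKI-73, against 114, 94.4 and 90.9 CPM with DMSO (0.42, SE 0.12, adjusted p = 0.014 in limma). In both, CDKI-73 replicate 3 was the highest sample and DMSO replicate 1 the highest of its group. POLR2L did not pass without DMSO replicate 3 (0.35) or with the reference genes (0.0086).

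POLR2H, another small common subunit, had 75.3, 72.5 and 82.0 CPM with CDKI-73, against 91.1, 86.5 and 86.8 CPM with DMSO. It was slightly lower (-0.20, SE 0.056, adjusted p = 0.011 in limma), by nearly the same amount as the median of all genes, and it turned above 0 under upper quartile scaling (0.072) and the trimmed mean of M-values (0.022). POLR2K, a zinc-binding subunit of the platform, had 113, 117 and 133 CPM with CDKI-73, against 119.6, 111 and 106 CPM with DMSO. The groups overlapped and the difference did not pass (0.11, SE 0.073, adjusted p = 0.21 in limma). POLR2K passed as higher after upper quartile scaling (0.38), with the trimmed mean of M-values (0.33) or with the median of gene ratios (0.31). With the reference genes it passed as lower (-0.30).

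**Figure D2:**
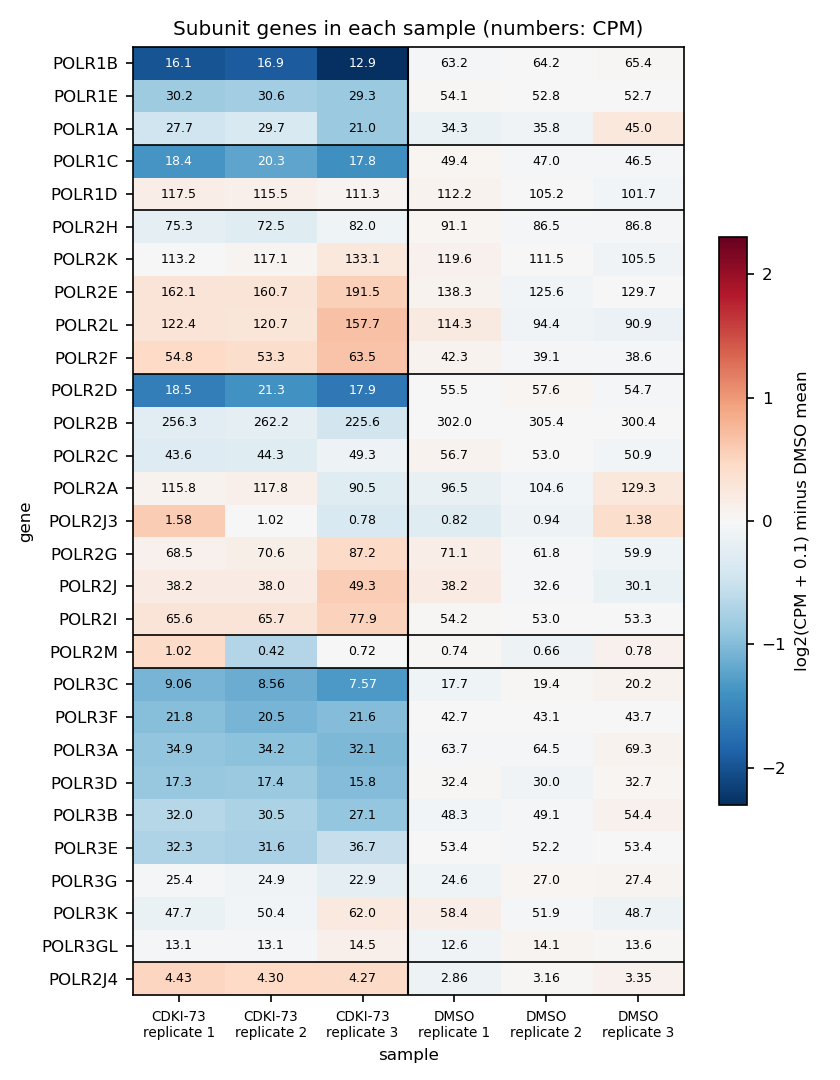
CPM of 29 subunit genes (numbers) in the 3 CDKI-73 and 3 DMSO samples, coloured by log2(CPM + 0.1) minus the mean of the DMSO samples. The darkest rows are POLR1B, POLR2D and POLR1C, and CDKI-73 replicate 3 departs from the other 2 CDKI-73 samples in many rows, for example 158 CPM for POLR2L and 90.5 CPM for POLR2A.

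Pol II itself showed a single large change. POLR2D, at chr2:127843553-127858155, encodes a subunit of the stalk, through which the enzyme contacts the nascent RNA. It had 18.5, 21.3 and 17.9 CPM in CDKI-73 samples, against 55.5, 57.6 and 54.7 CPM in DMSO samples. The groups were well separated and the level was 2.91-fold lower (log2 fold change -1.54, SE 0.072, adjusted p = 3.3e-07 in limma). Its stalk partner POLR2G had 68.5, 70.6 and 87.2 CPM with CDKI-73, against 71.1, 61.8 and 59.9 CPM with DMSO. These groups overlapped and the difference did not pass (0.23, SE 0.10, adjusted p = 0.077 in limma), although it did without DMSO replicate 1 (0.30). POLR2G also passed as higher after upper quartile scaling (0.50), with the trimmed mean of M-values (0.45) or with the median of gene ratios (0.43). With the reference genes it was at -0.18 and did not pass.

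The largest subunit, POLR2A, carries the CTD that CDK9 phosphorylates. Its level was 116, 118 and 90.5 CPM in CDKI-73 samples, against 96.5, 105 and 129 CPM in DMSO samples. Each group spanned most of the range of the other, and no difference was detectable (log2 fold change -0.03, SE 0.13, adjusted p = 0.86 in limma). With the reference genes as the scale POLR2A passed as lower (-0.43, adjusted p = 0.028 in limma). It was above 0 without a call with the median of gene ratios (0.17), the trimmed mean of M-values (0.20) and the upper quartile (0.25). POLR2B, the second largest subunit, had 256, 262 and 226 CPM with CDKI-73, against 302, 305 and 300.4 CPM with DMSO (-0.29, SE 0.060, adjusted p = 0.0026 in limma). The groups did not overlap, but relative to the median of all genes the difference was only -0.11. It did not pass after upper quartile scaling (-0.014), with the trimmed mean of M-values (-0.064) or with the median of gene ratios (-0.088).

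POLR2C and POLR2J are the Pol II counterparts of the POLR1C and POLR1D platform. POLR2C had 43.6, 44.3 and 49.3 CPM with CDKI-73, against 56.7, 53.0 and 50.9 CPM with DMSO (-0.23, SE 0.066, adjusted p = 0.014 in limma). It did not pass without CDKI-73 replicate 1 (-0.19) or DMSO replicate 1 (-0.19), and it was above 0 under upper quartile scaling (0.048). POLR2J had 38.2, 38.0 and 49.3 CPM with CDKI-73, against 38.2, 32.6 and 30.1 CPM with DMSO. It passed as higher (0.31, SE 0.12, adjusted p = 0.046 in limma) although the groups overlapped. It did not pass without CDKI-73 replicate 3 (0.19), DMSO replicate 2 (0.29) or DMSO replicate 3 (0.23), and it turned below 0 with the reference genes (-0.096). The call was also lost with the replicate number as a block, without limma's trend and without the filter on low genes.

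POLR2I, a small subunit near the jaw, had 65.6, 65.7 and 77.9 CPM with CDKI-73, against 54.2, 53.0 and 53.3 CPM with DMSO. Every CDKI-73 sample lay above every DMSO sample (0.38, SE 0.071, adjusted p = 0.0015 in limma), and the sign turned with the reference genes (-0.031). Of the exon bases of POLR2I, 47.4% lie in exons of other genes on the opposite strand, and the strand setting of the counting is not given. The class median of Pol II ranged between -0.13 without CDKI-73 replicate 1 and 0.14 without DMSO replicate 3, so its sign rests on single libraries.

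Some of the Pol II rows are low or share sequence with a copy. POLR2J, POLR2J2, POLR2J3 and POLR2J4 are related genes on chromosome 7. The effect of reads that match more than 1 of them on the counts was not tested. POLR2J3 had 1.58, 1.02 and 0.78 CPM with CDKI-73, against 0.82, 0.94 and 1.38 CPM with DMSO, and 92.7% of its exon bases lie in exons of another gene on the same strand. Its groups overlapped (0.08, SE 0.27, adjusted p = 0.81 in limma). POLR2J4, annotated as a long non-coding RNA gene, had 4.43, 4.30 and 4.27 CPM with CDKI-73, against 2.86, 3.16 and 3.35 CPM with DMSO. It was higher without overlap (0.46, SE 0.093, adjusted p = 0.0021 in limma), though not with the reference genes (0.066).

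POLR2M encodes a protein that binds Pol II without being part of its core. It had 1.02, 0.42 and 0.72 CPM with CDKI-73, against 0.74, 0.66 and 0.78 CPM with DMSO, at the bottom of the range that the rule admitted. These values overlapped (-0.08, SE 0.26, adjusted p = 0.80 in limma), and 31.6% of its exon bases are shared with GCOM1. Its mean of 0.723 CPM and that of POLR2J3 at 1.09 CPM were the closest above the limit of 0.5 CPM. The matching row below it was POLR2J2 with a mean of 0.0233 CPM, under the 0.0492 to 0.0651 CPM that 3 reads are worth.

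In Pol III, 7 of 10 specific subunits were lower, and these 7 had no overlap between groups. Among all tested genes 48.2% were lower, and 50.0% had every CDKI-73 sample below every DMSO sample. The catalytic pair fell together. POLR3A, the largest subunit, had 34.9, 34.2 and 32.1 CPM in CDKI-73 samples, against 63.7, 64.5 and 69.3 CPM in DMSO samples (log2 fold change -0.96, SE 0.056, adjusted p = 1.1e-06 in limma). POLR3B, the second largest, had 32.0, 30.5 and 27.1 CPM with CDKI-73, against 48.3, 49.1 and 54.4 CPM with DMSO (-0.76, SE 0.077, adjusted p = 3.5e-05 in limma). Both levels were lowest in CDKI-73 replicate 3.

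POLR3C, POLR3F and POLR3G or its paralog POLR3GL form a trimer that takes part in promoter opening, and its members differed. POLR3C, at chr1:145824053-145844402, had 9.06, 8.56 and 7.57 CPM in CDKI-73 samples, against 17.7, 19.4 and 20.2 CPM in DMSO samples. It was 2.26-fold lower, the largest fall among Pol III specific genes (log2 fold change -1.18, SE 0.087, adjusted p = 5.0e-06 in limma). It fell short of 2-fold after scaling by the upper quartile (-0.90), the trimmed mean of M-values (-0.95) or the median of gene ratios (-0.98). POLR3F, at chr20:18466878-18484648, had 21.8, 20.5 and 21.6 CPM with CDKI-73, against 42.7, 43.1 and 43.7 CPM with DMSO. Its replicates were close together and the fall was at the edge of the 2-fold call (-1.02, SE 0.050, adjusted p = 4.6e-07 in limma), which was lost without CDKI-73 replicate 2 (-0.99) and with a pseudocount of 1 CPM (-0.99). In the same order, these 3 scalings put it at -0.74, -0.79 and -0.81, also short of 2-fold.

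POLR3G, the form known for its high level in stem cells and tumours, had 25.4, 24.9 and 22.9 CPM with CDKI-73, against 24.6, 27.0 and 27.4 CPM with DMSO (-0.11, SE 0.067, adjusted p = 0.18 in limma). POLR3GL, the widely expressed form, had 13.1, 13.1 and 14.5 CPM with CDKI-73, against 12.6, 14.1 and 13.6 CPM with DMSO (0.02, SE 0.073, adjusted p = 0.86 in limma). The groups overlapped for both genes. With the reference genes as the scale POLR3G (-0.51) and POLR3GL (-0.39) passed as lower, and with the upper quartile they passed as higher (0.17 and 0.29). For POLR3GL, 32.4% of the exon bases lie in exons of another gene on the same strand. Per kb of transcript, POLR3G made up 39.2% ± 2.69 of the pair in CDKI-73 samples and 41.3% ± 0.57 in DMSO samples (SD, n = 3 each).

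POLR3D and POLR3E form a dimer needed for initiation and termination. POLR3D had 17.3, 17.4 and 15.8 CPM with CDKI-73, against 32.4, 30.0 and 32.7 CPM with DMSO (-0.91, SE 0.064, adjusted p = 3.7e-06 in limma). POLR3E had 32.3, 31.6 and 36.7 CPM with CDKI-73, against 53.4, 52.2 and 53.4 CPM with DMSO (-0.66, SE 0.064, adjusted p = 2.7e-05 in limma). Neither gene had a CDKI-73 sample within the range of DMSO.

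CRCP, a stalk subunit of Pol III listed under its own symbol and so not a member, averaged 42.3 ± 2.08 CPM in CDKI-73 samples and 58.3 ± 0.382 CPM in DMSO samples (-0.46, adjusted p = 5.8e-05 in limma, SD, n = 3 each). POLR3K, a small subunit that acts in RNA cleavage and termination, had 47.7, 50.4 and 62.0 CPM with CDKI-73, against 58.4, 51.9 and 48.7 CPM with DMSO. The groups overlapped and no difference was detectable (0.01, SE 0.11, adjusted p = 0.97 in limma). POLR3K passed as higher with the upper quartile (0.28) and as lower with the reference genes (-0.40).

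To compare the 3 enzymes without regard to library scaling, subunit genes were set against each other within each sample. Most pairs were subunits that hold the same place in different polymerases. The others lie within a single enzyme: POLR2D with POLR2G in Pol II, and POLR3G with POLR3GL in Pol III. The difference in log2 ratio (CDKI-73 minus DMSO) was computed for 12 pairs and tested by a two-sided exact permutation test of 3 samples against 3, whose smallest p is 0.1 (0.12 after Benjamini-Hochberg adjustment over the 12 pairs). This test could therefore not reach 0.05 for any pair. In 10 of the 12 pairs, POLR2D with POLR2G among them, the groups did not overlap. Separation was common for single genes too: 50.0% of all tested genes were fully below and 25.9% fully above. No share over other gene pairs was computed.

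For the largest subunits, the log2 ratio of POLR1A to POLR2A was -2.06, -1.99 and -2.10 in CDKI-73 samples, against -1.49, -1.55 and -1.52 in DMSO samples. The replicates agreed more closely here than in either gene alone, and the difference was -0.53 (SE 0.038). The ratio of POLR3A to POLR2A differed by -0.94 (SE 0.13). For the second largest subunits, the log2 ratio of POLR1B to POLR2B was -3.99, -3.95 and -4.12 with CDKI-73, against -2.26, -2.25 and -2.20 with DMSO. This was the largest of all differences (-1.79, SE 0.055), and that of POLR3B to POLR2B was -0.47 (SE 0.065). Both catalytic subunits of Pol I and Pol III were thus lower in relation to their Pol II counterparts in every CDKI-73 sample than in any DMSO sample.

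In the platform, the ratio of POLR1C to POLR2C differed by -1.11 (SE 0.10) without overlap, while that of POLR1D to POLR2J differed by -0.20 (SE 0.16) with overlap (exact permutation p = 0.3). Around the stalk the order changed with the subunit. TWISTNB was lower against POLR2G (-1.38, SE 0.20), whereas CRCP was higher against POLR2D (1.08, SE 0.096). Within the Pol II stalk, the log2 ratio of POLR2D to POLR2G was -1.89, -1.73 and -2.29 with CDKI-73, against -0.36, -0.10 and -0.13 with DMSO, a difference of -1.77 (SE 0.18). The small subunits ZNRD1 and POLR3K were lower against POLR2I (-1.51, SE 0.14, and -0.37, SE 0.079). The ratio of POLR3G to POLR3GL differed by -0.12 (SE 0.097), with overlap (exact permutation p = 0.2).

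**Figure D3:**
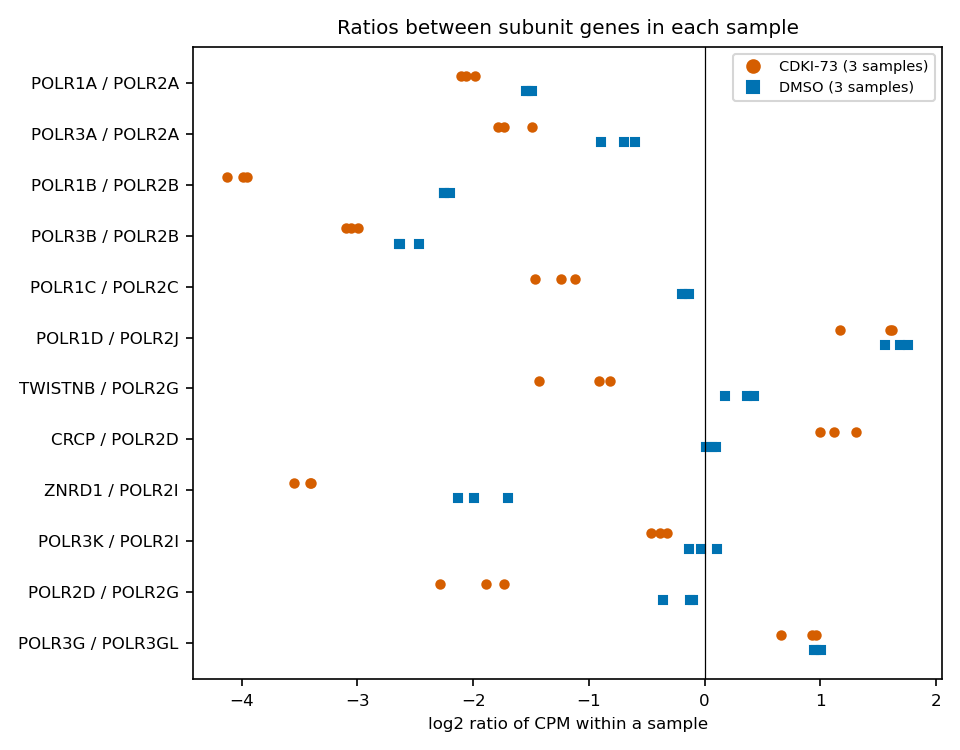
Log2 ratio of CPM between subunit genes within each sample, for 12 pairs, with 3 CDKI-73 samples (circles) and 3 DMSO samples (squares). The groups are separate in 10 pairs, and no share over other gene pairs was computed. CRCP over POLR2D is the pair that is higher with CDKI-73, and POLR1D over POLR2J and POLR3G over POLR3GL overlap.

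Levels of different genes were compared per kb of transcript, using 1 transcript per gene. POLR1D was the highest in both groups, at 166 ± 4.61 CPM per kb in CDKI-73 samples and 153 ± 7.68 in DMSO samples (SD, n = 3 each). POLR2I followed, at 157 ± 15.9 and 121 ± 1.40 CPM per kb, and then POLR2L and POLR2K. In CDKI-73 samples POLR1D, POLR2I and POLR2L did not differ beyond their spread, nor did POLR2I, POLR2K and POLR2L in DMSO samples. The largest subunit of Pol II had a higher mean than the catalytic subunits of the other enzymes. POLR2A had 17.1 ± 2.41 CPM per kb in CDKI-73 samples and 17.4 ± 2.71 in DMSO samples. By the same measure POLR3A had 5.10 ± 0.215 with CDKI-73 and 9.96 ± 0.460 with DMSO, POLR3B had 7.15 ± 0.605 with CDKI-73 and 12.1 ± 0.784 with DMSO, and POLR1A had 2.10 ± 0.365 with CDKI-73 and 3.07 ± 0.464 with DMSO. POLR1B had 2.04 ± 0.281 CPM per kb with CDKI-73 and 8.54 ± 0.146 with DMSO, and so took place 27 of 30 with CDKI-73 and place 23 with DMSO. With CDKI-73 it did not differ beyond the spread from POLR1A or POLR3C (2.22 ± 0.201 CPM per kb), while in DMSO samples it lay above both.

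**Figure D4:**
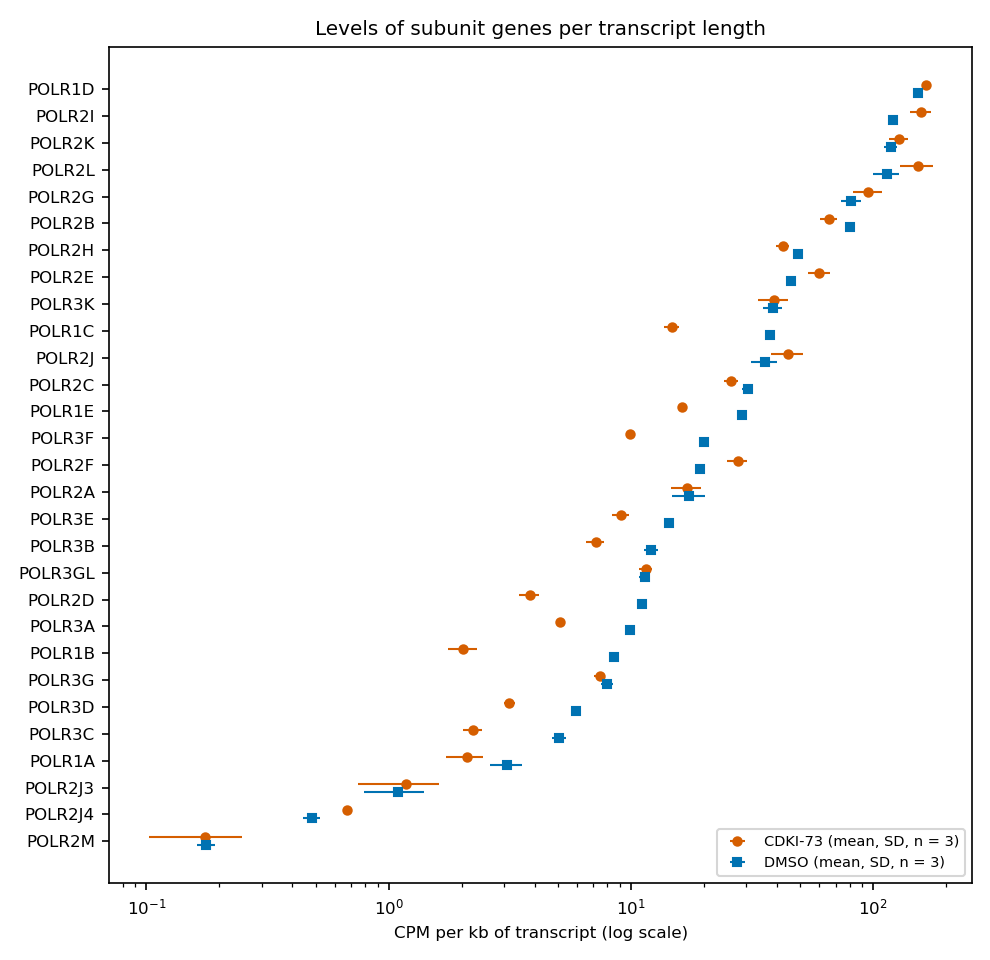
Mean CPM per kb of transcript (log axis, SD as bars, n = 3) for 29 subunit genes in CDKI-73 (circles) and DMSO (squares) samples, ordered by the DMSO level. The widest gaps between the groups are those of POLR1B (2.04 and 8.54), POLR2D (3.81 and 11.1) and POLR1C (14.8 and 37.4).

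Across the 27 subunit genes with a mean of at least 5 CPM, the library that stood apart did so by transcript length. In CDKI-73 replicate 3, short transcripts were higher and long ones lower than in the other 2 samples of its group (Pearson's r = -0.75, Spearman's rho = -0.75 against log2 transcript length). POLR2L, with a transcript of 0.876 kb, deviated by 0.38 on the log2 scale there and POLR1A, with 12.5 kb, by -0.45. DMSO replicate 1 showed the same pattern (r = -0.67, rho = -0.70), and the deviations of these samples correlated over the genes (r = 0.81, rho = 0.82). These genes share each library, so the correlations are descriptions. The log2 fold change itself correlated with transcript length (r = -0.59, rho = -0.64), and did so without both samples (r = -0.57, rho = -0.60). It also correlated with the DMSO level per kb (r = 0.58, rho = 0.62) and less with the span of the gene (r = -0.36, rho = -0.40). Length went partly with class. Subunits shared by all had transcripts of 0.876 to 2.85 kb, POLR1B and POLR1A of 7.53 and 12.5 kb. The genes POLR1C and POLR1E, also lower, had 1.275 and 1.855 kb. The part of length in the differences between classes was not tested. Without CDKI-73 replicate 3 and DMSO replicate 1, 15 subunit genes were lower, 5 of them at least 2-fold, and 8 were higher, POLR1D and POLR2G in addition.

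**Figure D5:**
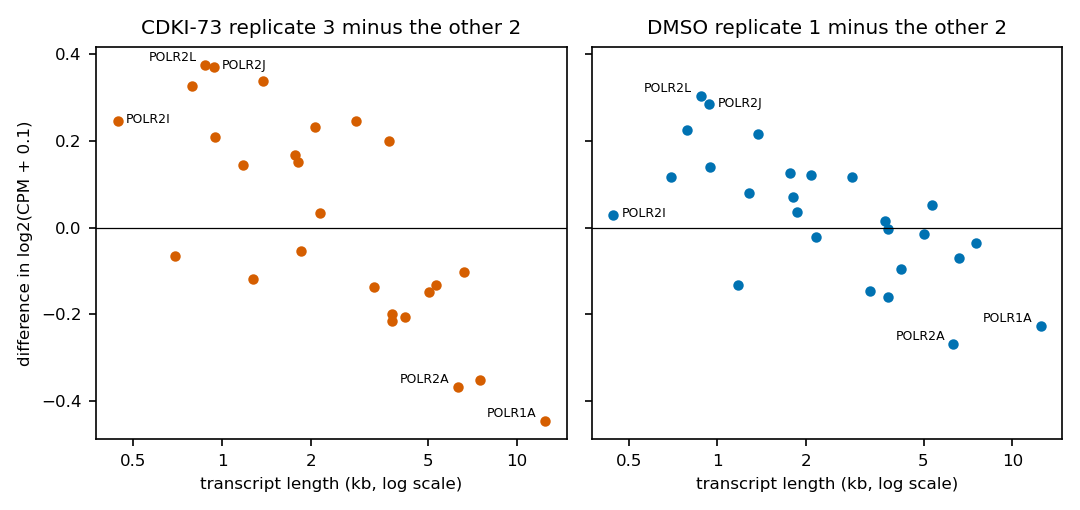
Deviation of CDKI-73 replicate 3 (left) and DMSO replicate 1 (right) from the mean of the other 2 samples of their group, in log2(CPM + 0.1), against transcript length in kb (log axis), for 26 of the 27 subunit genes. Both panels slope down (r = -0.75 and -0.67 over all 27), with POLR2L and POLR2J at the top and POLR1A and POLR2A at the bottom.

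Among the factors that work with the polymerases, those of Pol I were mostly lower. Of 8 genes for its initiation and termination machinery 7 were lower, 5 of them at least 2-fold, none was higher (also 0 at an unadjusted p under 0.05 in limma and by voom), and the median log2 fold change was -1.17. Among all tested genes 48.2% were lower, 22.3% at least 2-fold, and 24.2% were higher. TTF1, which stops Pol I at the end of the ribosomal RNA gene, averaged 10.5 ± 0.584 CPM in CDKI-73 samples and 39.6 ± 0.384 CPM in DMSO samples (-1.91, adjusted p = 6.0e-08 in limma). TBP, which all the polymerases use to initiate, averaged 6.08 ± 1.02 CPM with CDKI-73 and 21.6 ± 0.616 CPM with DMSO (-1.82, adjusted p = 2.0e-06 in limma). For TAF1A and TAF1B, its partners at Pol I promoters, the log2 fold changes were -1.77 and -1.20.

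Of 16 genes for Pol III factors 9 were lower, 3 at least 2-fold, and 3 were higher, with a median of -0.38. These shares (56.3%, 18.8% and 18.8%) were near those of all tested genes (48.2%, 22.3% and 24.2%). BRF2, an initiation factor for the U6 type of Pol III promoter, had 2.06, 1.83 and 0.61 CPM in CDKI-73 samples, against 13.9, 13.2 and 12.3 CPM in DMSO samples (-3.20, adjusted p = 8.3e-05 in limma). Of its exon bases, 63.6% lie in exons of another gene on the opposite strand. GTF3C4, a subunit of TFIIIC, had a log2 fold change of -1.65, and SNAPC1 and SNAPC2, subunits of the complex that binds small nuclear RNA promoters, of -1.23 and -0.89.

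Factors that assemble the polymerases and bring them into the nucleus had no common direction. Of 14 tested genes 3 were lower and 5 higher, against 48.2% and 24.2% of all tested genes, and the median of all 14 was -0.0033. The genes named next are those of the 8 with the greatest change. RPAP2, which also removes phosphate from the CTD, averaged 19.9 ± 2.20 CPM with CDKI-73 and 40.3 ± 0.749 CPM with DMSO (-1.02, adjusted p = 8.7e-06 in limma). The GTPase gene GPN2 was lower as well (-0.97), as was PDRG1 (-0.70), whereas UXT was higher (0.37) and turned to -0.032 with the reference genes. CTD phosphatases and their partners were lower in 6 of 8 genes, 5 at least 2-fold, and 1 was higher, with a median of -1.26; among all tested genes 48.2% were lower, 22.3% at least 2-fold, and 24.2% higher. CTDP1, the phosphatase that recycles Pol II, averaged 3.71 ± 0.246 CPM in CDKI-73 samples and 17.7 ± 0.733 CPM in DMSO samples (-2.22, adjusted p = 9.7e-08 in limma). RPRD2, RPRD1B and CTDSP2 had log2 fold changes of -1.39, -1.30 and -1.27. The mitochondrial RNA polymerase gene POLRMT, which belongs to none of these enzymes, did not pass the test (0.06, adjusted p = 0.45 in limma).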

How the data were processed

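Libraries of polyA+ RNA from LNCaP cells were stranded and sequenced from a single end. Mapping to hg38 used STAR 2.6.1d with its GeneCounts mode, and the authors deposited CPM per gene with 2 decimals, without TMM factors. The submitters' processing notes also name FastQC, R 3.2.3 and edgeR 3.3. Annotation and strand setting of the counting are not given in the sources used. Overlapping genes may thus alter the reads of a row, and this effect was not tested. Such overlap is given above for some genes only. Columns were matched to samples by label. All samples are biological replicates by the study's methods.

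Genes with a mean of at least 0.5 CPM entered a limma fit of log2(CPM + 0.1) (version 3.58.1, R 4.3.3, lmFit, eBayes with trend) in place of a count test, with Benjamini-Hochberg adjustment over 13373 genes. Lower and higher mean that the adjusted p reached 0.05, and a 2-fold call adds that size. The pseudocount of 0.1 CPM makes fold changes of low genes too small. The deposited CPM give no totals, so depth was inferred from the step of the values, and 100% of the values tested (the most abundant genes aside) were whole reads within 0.005 CPM. Gene models came from GENCODE 44 (hg38) and promoters from RefSeq. Ratios were tested with scipy 1.17.1, with pandas 2.3.3 for tables and matplotlib 3.10.9 for plots (Python 3.11.15).

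The members and gene lists were chosen with earlier results of these data known. Every subunit gene is named except 1 that is not reported here and enters the counts only, and of each other list the 4 that passed with the greatest change. The 20 settings tried cover pseudocounts, filters, scalings, variance models, a replicate block, leaving out samples and limma voom on recovered reads.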

Additional observations from a re-analysis of the deposited data

How the results depend on the processing

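The falls of POLR1B, POLR1C and POLR2D stayed past the 2-fold call under every setting tried. Of the single-gene values under the alternatives, 873 kept direction and call, 20 gained a call, 20 lost one and 35 changed sign. With the median of gene ratios, 5122 genes were higher and 229 at least 2-fold higher, 10 subunit genes were higher and 3 called lower. With the upper quartile these counts were 5760, 279, 12 and 3, with the trimmed mean of M-values 5362, 239, 10 and 3, and with the reference genes 395, 79, 0 and 10, beside 9882 genes lower. The class medians for Pol I, Pol I and III shared, all-shared, Pol II and Pol III genes were -0.62, -0.41, 0.58, 0.22 and -0.51 with the median of gene ratios, -0.55, -0.34, 0.66, 0.29 and -0.43 with the upper quartile, -0.60, -0.39, 0.61, 0.24 and -0.48 with the trimmed mean, and -1.23, -1.02, -0.026, -0.36 and -1.12 with the reference genes. Genes at least 2-fold higher numbered 52 with a pseudocount of 1 CPM, 377 without a filter and 52 with a mean of at least 2 CPM.

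Signs changed as follows. With the median of gene ratios, POLR2M was at 0.10, POLR3G at 0.094 and POLR2A at 0.17. With the upper quartile, POLR2M was at 0.16, POLR3G at 0.17, POLR2C at 0.048, POLR2H at 0.072 and POLR2A at 0.25. With the trimmed mean, POLR2M was at 0.12, POLR3G at 0.12, POLR2H at 0.022 and POLR2A at 0.20. With the reference genes, POLR2J3 was at -0.30, POLR3GL at -0.39, POLR2J at -0.096, POLR3K at -0.40, POLR2I at -0.031, POLR2G at -0.18, POLR1D at -0.30, POLR2K at -0.30, POLR2E at -0.026 and UXT at -0.032. A scaling adds nearly the same amount to every gene, which by construction turns those near 0. Leaving out 1 sample, POLR2A ranged from -0.12 (without DMSO replicate 1) to 0.096 (without CDKI-73 replicate 3), POLR2J3 from -0.18 to 0.29, POLR2M from -0.34 to 0.22, POLR3GL from -0.033 to 0.049 and POLR3K from -0.11 to 0.082; none of these passed the test in the full data. Without CDKI-73 replicate 3 and DMSO replicate 1 together, a setting chosen after seeing the data, POLR3GL was at -0.077, POLR3K at -0.04, POLR2A at 0.0064 and the Pol I and III shared median at -0.55. With the subunits under other symbols, also added later, the Pol I median was -1.13.

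With each sample left out in turn, 2622 to 3425 genes were higher and 6088 to 6620 lower, and there were 14 to 15 subunit genes lower, 4 to 8 higher, 4 to 5 called lower and none called higher. The median ranged from -0.83 to -0.80 for Pol I, -0.64 to -0.58 for Pol I and III shared, 0.29 to 0.43 for all-shared, -0.13 to 0.14 for Pol II and -0.73 to -0.68 for Pol III genes. Same-numbered samples did not deviate together (r = -0.29, 0.11 and -0.23). Whether they were set up together is not stated. These correlations cannot settle it, because CDKI-73 replicate 3 and DMSO replicate 1 weigh on all deviations from the group means. With the replicate number as a block, 15 subunit genes were lower, 5 higher (POLR2J was lost) and 5 called lower. At these depths 3 reads are worth up to 0.0651 CPM, so POLR2J2 could not be compared, and POLR2M and POLR2J3 only coarsely. For the other changes the cause was not tested.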
